A study of Mus musculus with 24 samples.

Results

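Collagens, laminins and other matrix genes were followed in C2C12 cells, an immortalised line of mouse myoblasts, in 4 culture states and with or without siRNA against Ift88. The set was a list of 50 genes chosen by name for their place in the extracellular matrix, with earlier results of these data known. Of these, 46 had an array probe set that the annotation gives to 1 gene only, out of 12393 such genes on the array. Fbn1, Spp1, Loxl2 and Sulf1 had none and were not analysed here. Col15a1, Lama4 and Eln lay under the filter for low signal, which left 43 members among the 8616 genes tested. Each gene was read through its probe set with the highest mean signal over the arrays.

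Total RNA of 8 groups, 3 Affymetrix mouse arrays each and 24 in all, was compared. The groups crossed the siRNA with the culture state: IFT88KD cells had siRNA against Ift88, whose product carries cargo along the growing cilium, and control cells had a negative control siRNA. Proliferating cells were adherent in DMEM with 20% FBS. Quiescent (G0) cells were in suspension with the same share of FBS, replated (R2) cells were taken 2 h after their return from suspension to a dish, and differentiating (D48) cells had 48 h of DMEM with 2% NHS. The series asks how the loss of cilia bears on myoblast quiescence. C2C12 is a single line, and nothing in the labels says that the 3 arrays of a group came from separate cultures, so the p-values measure only the spread between these arrays, which may be technical.

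The extracellular matrix has an interstitial part and a basement membrane. Fibrillar collagens build the tension-bearing fibres of the interstitium, collagen VI forms beaded filaments beside them, and small proteoglycans such as decorin bind the fibrils and set their spacing. The basement membrane that wraps each muscle fibre is a laminin network and a collagen IV network, linked by nidogens and the proteoglycan perlecan. Satellite cells, the stem cells from which myoblasts arise, lie under that sheet, and collagen VI and fibronectin are known components of their niche.

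Ift88 was lower on every IFT88KD array than on any control array in proliferating, quiescent and replated cells. Its change was -0.50 log2 in proliferating (SE 0.17, adjusted p = 0.44), -0.70 in quiescent (SE 0.17, adjusted p = 0.0177) and -0.75 in replated cells (SE 0.17, adjusted p = 0.0195, and 0.0525 on the deposited scale; limma, Benjamini-Hochberg over all genes, here and for every adjusted p below). In differentiating cells it was -0.02 (SE 0.17, adjusted p = 0.998), so the arrays labelled IFT88KD differentiating showed no drop of the targeted mRNA. Replicate arrays correlated at 0.991 or more. The deposited values of the 4 states lay on different scales, with array medians from 2.92 to 3.85 log2, so levels below are log2 values brought to a common distribution over the 24 arrays. On that scale a gene under 2.29 lies below the 40th percentile of an array, where the size of a change is uncertain. The number of arrays limits the precision.

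Markers of myoblasts were present: 5 of 6 passed the filter, with Pax7 below it. Of the fibroblast markers Pdgfra, Cd34 and Pi16 passed while Thy1, Dpt and Dpp4 were under the filter level on every array. Of the macrophage markers Cd68, Cd14 and Csf1r passed while Adgre1, Ptprc and Lyz2 did not on any array. None of 4 endothelial or 3 measured adipocyte markers passed, and 1 of 4 measured bone and cartilage markers did.

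The first comparison was that of quiescent with proliferating control cells. Matrix genes were mostly higher in suspension: 27 of 43 rose and 11 fell, with a median change of 0.81 log2 against 0.04 over all genes tested. Of all genes 37.4% rose and 33.1% fell, so the share that changed at all was high everywhere, and the members stood at 62.8% and 25.6%. The members that rose most were Dcn, Col6a1, Col6a2, Postn and Loxl1, and those that fell most were Col8a1, Tnc, Fmod, Col4a1 and Nid2. Each state was measured on its own arrays, so state and any processing that differed between states cannot be told apart.

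Dcn, which encodes decorin, the small proteoglycan that binds collagen fibrils and TGF-beta, read 1.79, 2.08 and 2.59 on control proliferating arrays and 9.56, 9.43 and 9.92 on control quiescent arrays. The groups were far apart. The change was 7.48 log2 (SE 0.31, adjusted p = 8.52e-15). Arrays of whole cultures cannot tell fewer cells of a kind from less RNA per cell, and since 2 of the 3 proliferating arrays lay under the filter level its size is uncertain. The other proteoglycans that rose were Vcan, Ogn and Lum. Fmod, which encodes fibromodulin, fell by 1.66 (SE 0.66, adjusted p = 0.0292), with 3 quiescent arrays under the filter level, and its 5 other probe sets gave -0.27 to -0.92. Control proliferating replicate 3 and control quiescent replicate 2 each decided this call, with adjusted p-values of 0.176 and 0.0891 in their absence.

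Collagen VI is built from 3 chains, and its genes Col6a1, Col6a2 and Col6a3 rose together. Col6a1 read 3.78, 5.04 and 5.76 on control proliferating arrays and 10.43, 9.98 and 9.93 on control quiescent arrays, a change of 5.25 log2 (SE 0.32, adjusted p = 3.81e-12). Col6a2 went from 3.91, 4.32 and 5.19 to 8.95, 8.84 and 8.87, a change of 4.41 (SE 0.28, adjusted p = 9.32e-12). A second Col6a2 probe set gave 4.11. Col6a3, already at 8.20 to 8.41 when proliferating, rose by 1.21 (SE 0.11). The proliferating arrays were spread widely for Col6a1 and Col6a2, lowest on replicate 1 and highest on replicate 3, and no proliferating array reached a quiescent one.

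The stretch of 250 bases before the start site of each collagen VI gene is shown because these 3 genes moved together. The sequences come from RefSeq on GRCm38.p6, all on the minus strand, at chr10:76726045-76726294 for Col6a1, chr10:76623405-76623654 for Col6a2 (the first of its 2 listed windows) and chr1:90843972-90844221 for Col6a3. Both strands were searched for the AP-1 motif TGANTCA and for the GC box, whose letters were GGGCGG. The box known as CCAAT and the motif TATAAA were searched too, and capitals mark every match.
Col6a1: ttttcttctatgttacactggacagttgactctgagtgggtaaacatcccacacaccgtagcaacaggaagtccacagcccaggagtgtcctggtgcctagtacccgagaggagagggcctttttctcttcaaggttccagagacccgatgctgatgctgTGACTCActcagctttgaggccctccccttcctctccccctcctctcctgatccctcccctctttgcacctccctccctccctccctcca
Col6a2: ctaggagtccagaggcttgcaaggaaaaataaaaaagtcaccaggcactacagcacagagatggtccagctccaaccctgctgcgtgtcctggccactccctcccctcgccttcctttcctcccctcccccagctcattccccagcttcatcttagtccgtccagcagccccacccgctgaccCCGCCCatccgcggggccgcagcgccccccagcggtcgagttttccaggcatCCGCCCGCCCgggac
Col6a3: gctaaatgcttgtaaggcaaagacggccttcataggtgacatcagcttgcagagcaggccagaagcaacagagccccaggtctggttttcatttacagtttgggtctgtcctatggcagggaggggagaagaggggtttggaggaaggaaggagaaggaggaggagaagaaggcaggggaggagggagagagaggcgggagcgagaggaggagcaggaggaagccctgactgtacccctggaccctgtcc
Col6a1 held an AP-1 match at 90 to 84 bases before the start, which 6.75% of all 32851 windows of this length hold. Col6a2 held 3 GC boxes, of which the last pair overlap, and 32.7% of windows hold at least 1. CCAAT, which 33.8% of windows hold, and TATAAA, which 12.4% hold, were not matched in the windows shown, and Col6a3 held no match to any of the 4. The motifs were chosen after the values were seen, and a match is a description of letters, not a site shown to be used.

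Among the matricellular proteins, which signal to cells more than they bear load, Postn (periostin) rose from 2.14, 2.95 and 2.50 to 6.29, 5.83 and 6.85, a change of 3.80 (SE 0.30, adjusted p = 2.70e-10). Tnc (tenascin-C) went the other way, from 8.78, 9.12 and 8.79 to 6.70, 7.17 and 6.99, a change of -1.94 (SE 0.25, adjusted p = 5.15e-07). Neither gene's groups overlapped. Of the 3 enzymes that modify the matrix, all rose: Loxl1, a lysyl oxidase that crosslinks elastic fibres, by 2.60 (SE 0.20), Sulf2, which removes 6-O-sulphate from heparan sulphate chains, by 1.83 (SE 0.26), and the lysyl oxidase Lox by 0.58 (SE 0.11).

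The basement membrane genes moved in both directions. The laminin chains Lama2, Lamb1, Lamb2 and Lamc1 rose with Nid1, Hspg2 (perlecan) and Col4a5, 7 of the 11 tested, while Col4a1, Col4a2 and Nid2 fell. The Hspg2 call (0.55, SE 0.23) was lost on centred values, with the compared groups only and without control proliferating replicate 1 or 2 or control quiescent replicate 2 or 3. Col4a1 fell by 1.49 (SE 0.20, adjusted p = 8.59e-07), from 8.41, 8.76 and 8.69 to 7.13, 6.99 and 7.26. Col4a2, its partner chain in the commonest collagen IV trimer, fell by 0.80 (SE 0.16). The start sites of these paired genes lie 21 bases apart on opposite strands in RefSeq, at positions 11312826 and 11312805 of chromosome 8 on GRCm38.p6. Nid2, which encodes the second nidogen, fell by 1.48 (SE 0.18, adjusted p = 2.61e-07), from 6.11, 6.79 and 6.77 to 4.85, 5.07 and 5.30, whereas Nid1 rose by 1.25 (SE 0.10).

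Fibrillar collagens moved in both directions. Col3a1 rose by 0.97 (SE 0.10) and Col5a3 by 1.93 (SE 0.35), Col11a1 rose by 0.57 (SE 0.24) at levels mostly under the filter, and Col1a1 and Col5a2 fell. The Col11a1 call was lost without control proliferating replicate 1 or control quiescent replicate 2, and the Col1a1 call without control proliferating replicate 3. Both were lost where probe sets were averaged per gene. Col1a2, the second chain of type I collagen, changed by 0.14 (SE 0.11, adjusted p = 0.252). Col8a1, a short-chain collagen, showed the largest fall of the set, from 5.49, 5.68 and 5.28 to 2.54, 2.57 and 2.88, a change of -2.82 (SE 0.25, adjusted p = 2.47e-09). Fibronectin (Fn1) rose by 0.92 (SE 0.09).

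The size of several of these changes depended on the probe set. Of 28 other probe sets of members called here, 27 moved the same way, 16 of them by over 1.5 times less. The second Col4a1 probe set gave -0.10 (SE 0.19), the second Col8a1 probe set -0.47 (SE 0.16) and the second Col1a1 probe set -0.20 (SE 0.30), and that of Col18a1 gave 0.20 (SE 0.12) where the brighter probe set gave -0.76.

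Markers of other cells moved in the same comparison. The summed signal of the fibroblast list was 8.92 to 8.97 log2 on control quiescent against 5.35 to 5.76 on control proliferating arrays, with Pdgfra up by 3.82 (SE 0.19). That of the macrophage list was 8.03 to 8.04 against 4.91 to 5.22, with Cd14 up by 3.80 (SE 0.15), and that of the cycling list 5.96 to 6.51 against 11.12 to 11.29. Myoblast markers summed to 9.62 to 9.89 against 10.37 to 11.04, with 4 of 5 lower, differentiated muscle markers to 10.54 to 11.12 against 7.96 to 10.64, with 4 of 6 higher, and the bone and cartilage list to 7.39 to 7.57 against 5.73 to 6.04. The part of these in the matrix changes was not tested.

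**Figure D1:**
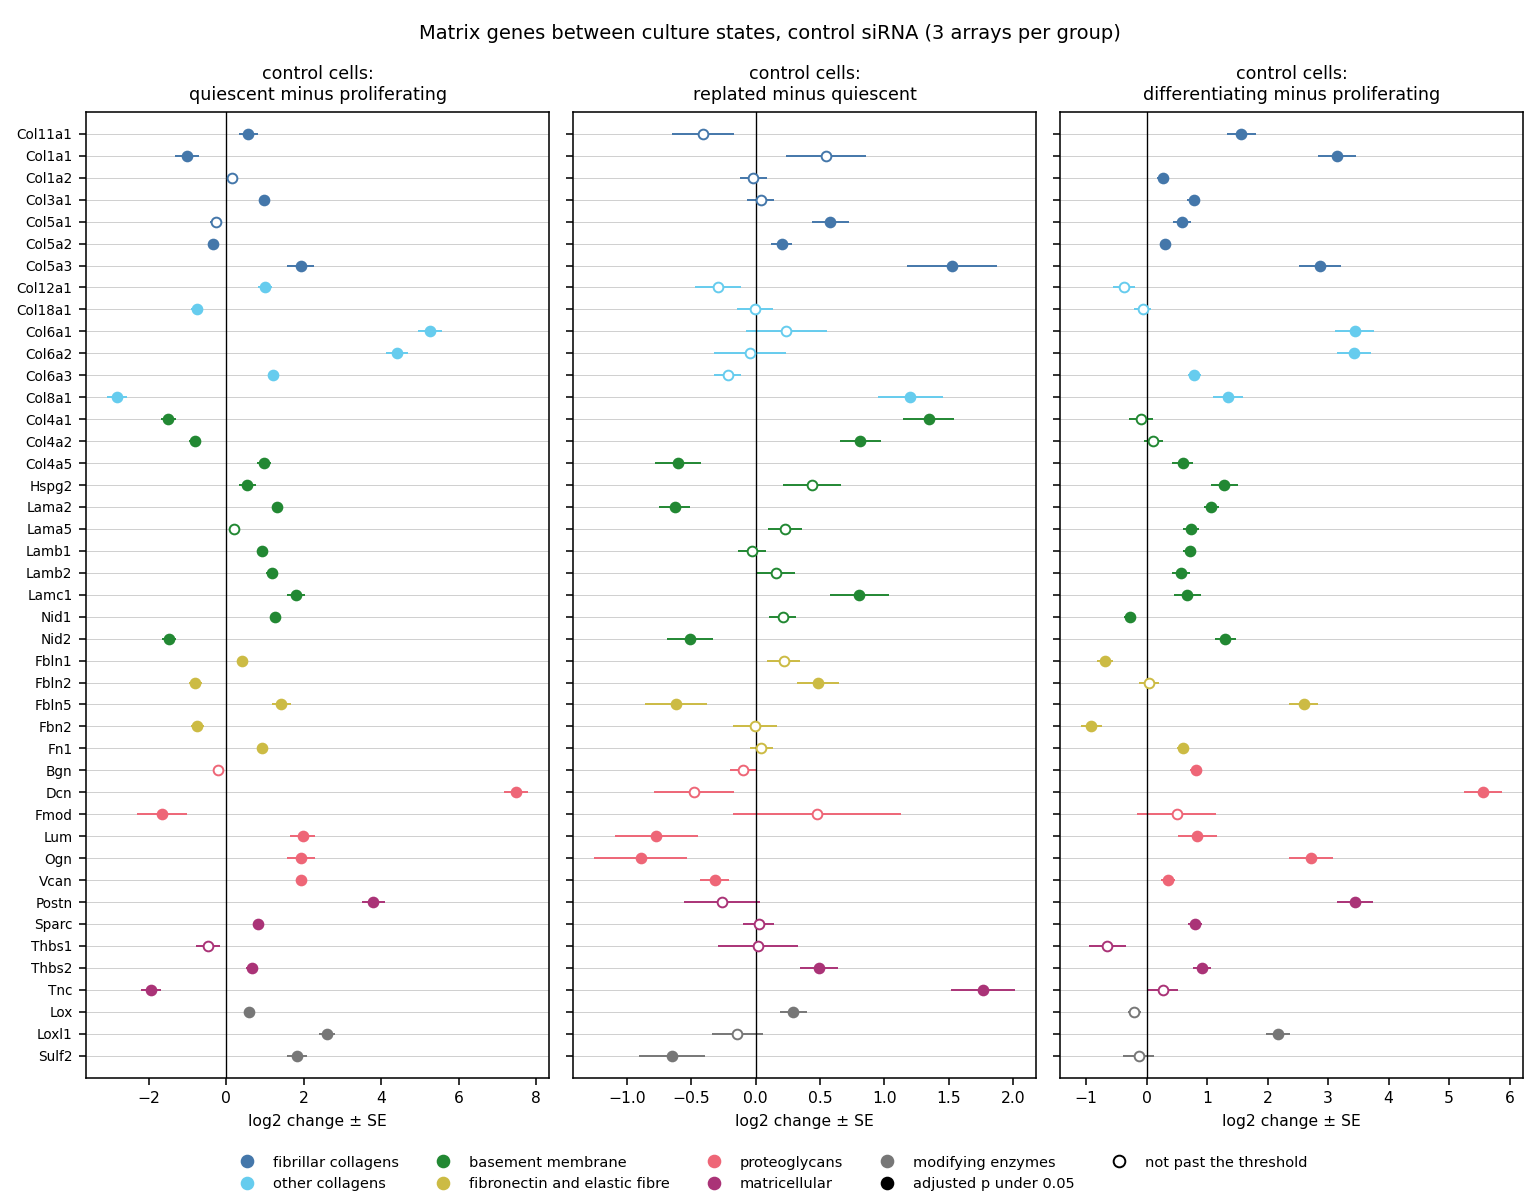
Log2 changes (x axis, ± SE) of the 43 tested matrix genes (y axis, coloured by class) between culture states in control cells, 3 arrays per group. Filled points passed an adjusted p of 0.05. Dcn, Col6a1 and Col6a2 lie far to the right in the quiescent and differentiating panels, and the replated panel is centred near 0.

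The next comparison followed quiescent cells 2 hours after replating. At that time 11 members were higher and 8 lower than in quiescent control cells, with 27.5% of all genes higher and 36.3% lower, and the members' median change was 0.02 against -0.09 for all genes. This split is set by the scale. On the deposited values, where the median of all genes moved by -0.60, 4 members were higher and 17 lower. Of all 8616 genes 838 were higher and 5703 lower there. On values centred on each array's median, where the all-gene median moved by 0.26, 26 members were higher and 0 lower. Of all genes 4067 were higher and 1761 lower on that scale. The 5 largest rises were in the same direction on every scale. Tnc rose by 1.77 (SE 0.25, adjusted p = 3.33e-06), from 6.70, 7.17 and 6.99 to 8.30, 8.69 and 9.18. Col4a1 rose by 1.35 (SE 0.20) and Col4a2 by 0.82 (SE 0.16), set beside their falls of 1.49 and 0.80 in suspension, a comparison that shares the quiescent control arrays. Col5a3 rose by 1.53 (SE 0.35) and Col8a1 by 1.20 (SE 0.25), the latter not past the threshold on the deposited scale (adjusted p = 0.209).

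The largest falls after replating were in Ogn (-0.89, SE 0.36), Lum (-0.77, SE 0.32), Sulf2 (-0.65, SE 0.26), Lama2 (-0.63, SE 0.12) and Fbln5 (-0.62, SE 0.24). Ogn encodes osteoglycin and Lum lumican, both leucine-rich proteoglycans, and Fbln5 encodes a fibulin of elastic fibres. All 5 kept their sign on every scale, but none passed the threshold on the centred values. The Ogn call was lost when any of the 6 arrays was left out (adjusted p from 0.0502 to 0.101). The calls of Fbln5 and Sulf2 were lost without control quiescent replicate 1 or 3 or control replated replicate 2 or 3 (0.0615 to 0.13), and that of Lum without control quiescent replicate 3 or control replated replicate 1 or 2 (0.11 to 0.49). The count of 19 became 11 without control quiescent replicate 3 and 12 without control replated replicate 2. Dcn, Col6a1 and Col6a2 had changes of -0.48, 0.24 and -0.05 and did not pass on the common scale, while Dcn was called lower on the deposited scale, with array weights and with the compared groups only, and Col6a1 was called higher on centred values. The summed fibroblast list was 7.56 to 7.68 on control replated against 8.92 to 8.97 on control quiescent arrays, and the macrophage list 7.31 to 7.42 against 8.03 to 8.04. A sum follows its brightest genes. On the common scale 1 of the 3 tested macrophage markers was higher and 1 lower, with a median change of 0.35. Of the 3 fibroblast markers 0 were higher and 2 lower, beside 27.5% and 36.3% of all genes. The part of both lists in the matrix changes was not tested.

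In the third comparison, of differentiating with proliferating control cells, 30 members rose and 3 fell, with 26.8% of all genes higher and 27.8% lower. The median change was 0.71 against -0.02 for all genes. On values centred on the array median, where all genes moved by -0.15, the split was 25 higher and 6 lower. Of all 8616 genes 1737 were higher and 3227 lower on those values. All 7 fibrillar collagens were higher, as were 5 of 6 proteoglycans and 8 of 11 basement membrane genes, but on the deposited scale Col1a2, Col5a2 and Vcan did not pass, and on centred values Lamc1 and Lum did not either. The Col1a2 call (0.27, SE 0.11) was also lost without control proliferating replicate 1 or without any 1 of the control differentiating arrays. That of Lamc1 was lost without control proliferating replicate 1, and that of Lum without control proliferating replicate 2 or control differentiating replicate 1 or 2. Of the called genes 22 had 26 further probe sets, which all moved the same way, 10 of them by over 1.5 times less (Col5a3 0.23 in place of 2.86).

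Col1a1, which encodes the main chain of type I collagen, read 4.12, 5.18 and 5.57 on control proliferating and 7.78, 8.22 and 8.31 on control differentiating arrays, a rise of 3.15 (SE 0.31, adjusted p = 4.13e-08). These groups did not overlap, whereas its fall of 1.01 in quiescence (SE 0.31) came with groups that did. Dcn rose by 5.56 (SE 0.31), to 7.86, 8.52 and 6.76, Col6a1 by 3.44 (SE 0.32), Col6a2 by 3.44 (SE 0.28) and Postn by 3.44 (SE 0.30). Nid2 rose by 1.30 (SE 0.18), in contrast to its fall in suspension. The 3 members that fell were Fbn2, a fibrillin (-0.91, SE 0.17), Fbln1, a fibulin (-0.69, SE 0.13), and Nid1 (-0.28, SE 0.10). The Nid1 call was lost without control differentiating replicate 1 or 2 or control proliferating replicate 1 or 2 (adjusted p from 0.0682 to 0.159). Summed markers of differentiated muscle were 13.70 to 13.84 on control differentiating and 7.96 to 10.64 on control proliferating arrays, and their part in these changes was not tested. The quiescent and differentiating comparisons share the proliferating control arrays.

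Ordered by their control means, 24 of the 43 members were lowest in proliferating cells, 9 in quiescent, 3 in replated and 7 in differentiating cells. The highest level was in differentiating cells for 16 members, in quiescent cells for 12, in replated cells for 11 and in proliferating cells for 4. These orders of means were not tested, and some means lay close together, with 0.27 log2 from highest to lowest for Col1a2. The same counts over all genes are not given, so they are not shown to be particular to matrix genes. Of the fibrillar collagens 5 of 7 were highest in differentiating cells, and Col6a2, Col6a3, Dcn, Vcan, Lum, Postn and Loxl1 were each highest in quiescent, then replated, then differentiating and lowest in proliferating cells. The place of the replated cells in these orders holds for the common scale only: on centred values Col6a3 was called higher in replated than in quiescent cells. On the common scale the quiescent and replated levels of Dcn, Col6a1 and Col6a2 did not differ past the threshold, with the exceptions on other scales given above.

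Between IFT88KD and control cells, the count of members past the adjusted threshold was highest in quiescent cells. At an unadjusted p under 0.05 in limma it was 6 in proliferating, 17 in quiescent, 19 in replated and 7 in differentiating cells. The matching shares of all genes are not given. In quiescent cells 11 of 43 members were higher and 1 was lower than in control cells at the adjusted threshold. Of all genes 3.12% were higher and 2.46% lower, and the median change was 0.25 for members against 0.00 for all genes. The higher members were spread over the classes: 4 of 11 in the basement membrane, 2 of 6 other collagens, 2 of 5 fibronectin and elastic fibre genes, and 1 each among proteoglycans, matricellular proteins and enzymes, with 0 of 7 fibrillar collagens past the threshold in limma. Of those 7, Col1a1 (0.86, SE 0.31) and Col5a1 (0.34, SE 0.14) had an unadjusted p under 0.05, and Col1a1 and Col5a3 passed with the replicate block. With the replicate number as a block, 16 were higher and 4 lower, the further calls being Col1a1, Col4a2, Col5a3, Col6a2 and Tnc (higher) and Dcn, Lum and Thbs1 (lower). The share of all genes called with the block is not given, here or for the block counts below. The shares of all genes printed here belong to the fit without the block.

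The nidogen Nid2 stood out for how steady its call was. It read 4.85, 5.07 and 5.30 on control quiescent arrays and 6.18, 5.83 and 6.30 on IFT88KD quiescent arrays, a rise of 1.03 log2 (SE 0.18, adjusted p = 9.78e-04). The groups did not overlap, and the call held under each of the alternatives tried. Nid2 is measured by 1 probe set here, and its partner Nid1 changed by -0.13 (SE 0.10, adjusted p = 0.598).

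Col4a1 read 7.13, 6.99 and 7.26 on control and 7.61, 8.10 and 8.09 on IFT88KD arrays, a rise of 0.81 (SE 0.20, adjusted p = 0.0156). Col4a2 changed by 0.53 (SE 0.16, adjusted p = 0.0557), with groups that did not overlap, and passed with the replicate block. Col4a5, a collagen IV chain of a different trimer, rose by 0.80 (SE 0.18, adjusted p = 0.0095), from 5.50, 5.75 and 5.41 to 6.03, 6.31 and 6.72. Lama2, the laminin chain of the muscle basement membrane, rose by 0.49 (SE 0.12, adjusted p = 0.0184), from 7.12, 7.26 and 7.46 to 7.64, 7.74 and 7.93. Other Col4a1 and Col4a5 probe sets gave 0.47 (SE 0.19) and 0.49 (SE 0.15).

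Col8a1 rose by 1.02 (SE 0.25, adjusted p = 0.0183), from 2.54, 2.57 and 2.88 to 3.40, 3.39 and 4.25, levels near the filter, and a second probe set gave 0.04 (SE 0.16). Col6a3 rose by 0.45 (SE 0.11, adjusted p = 0.0123), from 9.46, 9.62 and 9.58 to a range of 9.85 to 10.15. The other chains, Col6a1 and Col6a2, changed by 0.13 (SE 0.32) and 0.47 (SE 0.28), and of these Col6a2 passed with the replicate block. Col12a1, a collagen that decorates fibrils, was the 1 member called lower without the block, from 5.32, 5.36 and 5.64 to 4.66, 4.34 and 4.92, a change of -0.80 (SE 0.18, adjusted p = 0.00941).

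Fmod rose by 2.30 (SE 0.66, adjusted p = 0.0408), from 1.93, 1.42 and 2.03 to 4.20, 3.23 and 4.86. All 3 control arrays lay under the filter level, and the 5 other Fmod probe sets gave 0.65 to 1.23. The Fmod call was lost with x_at probe sets set aside, with probe sets averaged per gene and with a robust variance trend in limma. The remaining members that rose were Fbn2 by 0.67 (SE 0.17, adjusted p = 0.0212), with every array of both groups under the filter level, Thbs2 (thrombospondin-2) by 0.62 (SE 0.15, adjusted p = 0.0131), Fbln1 by 0.57 (SE 0.13, adjusted p = 0.0107) and Lox by 0.38 (SE 0.11, adjusted p = 0.0376). Of the 11 other probe sets of members called here all moved the same way, 8 of them by over 1.5 times less.

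These calls rested on few arrays. The count of 12 fell to 4 without IFT88KD quiescent replicate 3, to 5 without control quiescent replicate 3 and to 7 without control quiescent replicate 1. Without IFT88KD replicate 3 the calls of Col4a1, Col4a5, Col6a3, Col8a1, Fbn2, Fmod, Lama2 and Lox were lost (adjusted p from 0.0728 to 0.183), and without control replicate 3 those of Col12a1, Col4a5, Fbln1, Fbn2, Fmod, Lox and Thbs2 (0.0522 to 0.139). Without control replicate 1 the calls of Col6a3, Col8a1, Fbn2, Fmod, Lama2 and Lox were lost (0.0564 to 0.14) and without control replicate 2 those of Col4a1, Col8a1, Fmod, Lama2 and Thbs2 (0.0605 to 0.156). Without IFT88KD replicate 1 Fbln1, Fmod, Lox and Thbs2 were lost (0.0676 to 0.135), and without IFT88KD replicate 2 Col12a1, Col4a1, Fbln1 and Lox (0.0545 to 0.0825). With the arrays of the compared groups only, the calls of Col6a3, Fbln1, Lama2, Lox and Thbs2 were lost. Those of Col8a1, Fmod and Lox were lost with probe sets averaged per gene.

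Set beside the change that suspension brings in control cells, the rises fell on genes of both kinds. Nid2, Col8a1, Fmod, Col4a1 and Fbn2 were lower in quiescent than in proliferating control cells (changes of -1.48, -2.82, -1.66, -1.49 and -0.75) and higher with IFT88 siRNA. Col4a5, Thbs2, Fbln1, Lama2, Col6a3 and Lox were higher in quiescence and higher again with the siRNA, while Col12a1 rose by 1.01 (SE 0.18) in quiescence and was lower with the siRNA. The 2 comparisons share the control quiescent arrays, so these values are given only side by side.

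Other genes moved with the siRNA in the same cells. The summed signal of cycling genes was 7.79 to 8.24 on IFT88KD quiescent and 5.96 to 6.51 on control quiescent arrays, and all 4 measured members rose, Mki67 by 2.42 (SE 0.21). The summed macrophage list was 6.54 to 6.71 against 8.03 to 8.04, with Cd14 down by 1.56 (SE 0.15) and Cd68 by 1.19 (SE 0.15). Summed differentiated muscle genes were 11.19 to 11.82 against 10.54 to 11.12, with 0 of 6 past the threshold. Summed myoblast markers were 10.05 to 10.24 against 9.62 to 9.89, with 0 of 5 past it. Summed fibroblast genes were 8.56 to 8.72 against 8.92 to 8.97, with 1 of 3 lower. Their part in the matrix changes was not tested.

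**Figure D2:**
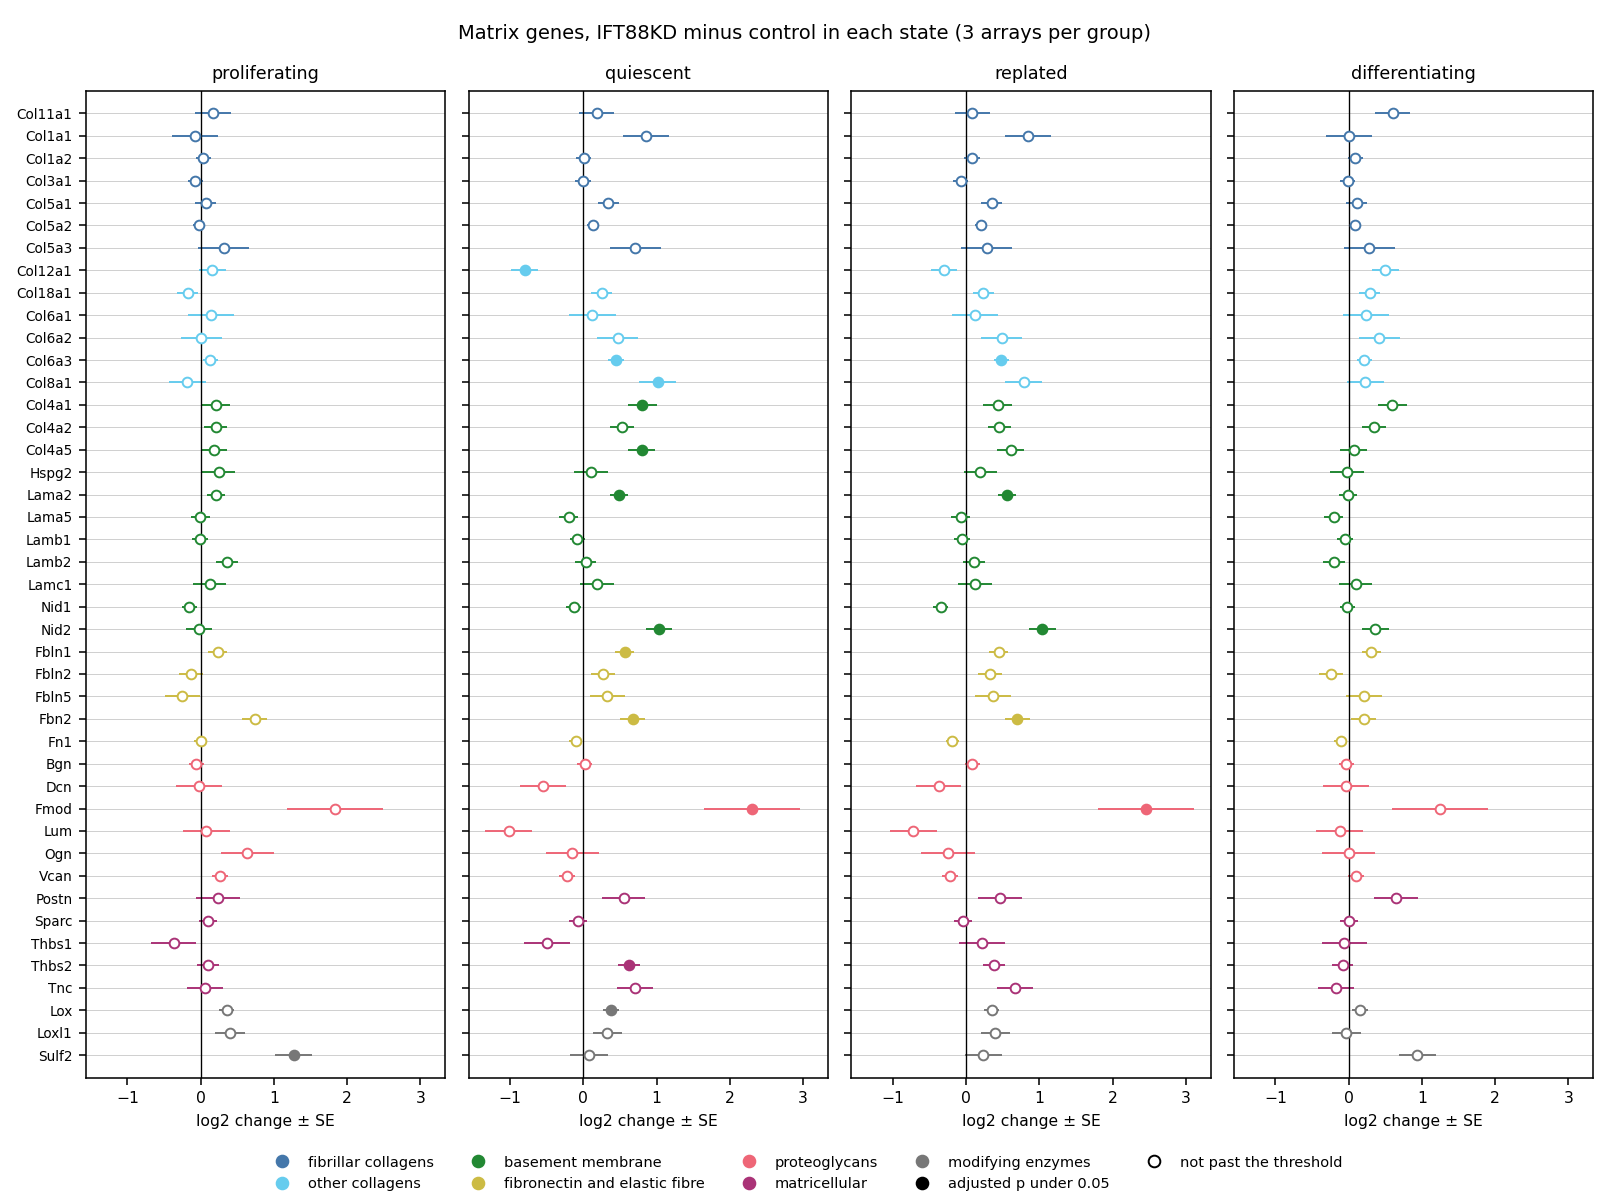
Log2 changes (x axis, ± SE) of the 43 tested matrix genes (y axis, coloured by class) between IFT88KD and control cells in each state, 3 arrays per group. Filled points passed an adjusted p of 0.05: 1 in proliferating, 12 in quiescent, 5 in replated and 0 in differentiating cells.

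In replated cells IFT88 siRNA gave 5 higher members and 0 lower, with 1.72% of all genes higher and 0.917% lower. The median change was 0.24 against 0.01 for all genes. Nid2 rose by 1.04 (SE 0.18, adjusted p = 0.00153), from 4.49, 4.50 and 4.69 to 5.56, 5.32 and 5.93, and passed under each alternative tried. Lama2 rose by 0.56 (SE 0.12, adjusted p = 0.0139), from 6.65, 6.53 and 6.77 to 7.05, 7.22 and 7.34, and Col6a3 by 0.48 (SE 0.11, adjusted p = 0.0131), from 9.50, 9.19 and 9.31 to 9.73, 9.79 and 9.93. For these 3 genes the groups did not overlap.

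Fmod rose by 2.46 in replated cells (SE 0.66, adjusted p = 0.0472), and its other probe sets gave 0.54 to 1.56. Fbn2 rose by 0.70 (SE 0.17, adjusted p = 0.03), from 1.13, 1.78 and 1.25 to 1.80, 2.39 and 2.06, with 5 of these 6 arrays under the filter level, and on the deposited scale neither Fmod nor Fbn2 passed (adjusted p = 0.0602 and 0.0681). With x_at probe sets set aside the adjusted p of Fmod was 0.576. With the replicate block 16 members were higher and 1, Nid1 (-0.35), was lower. The further higher calls were Col1a1, Col4a1, Col4a2, Col4a5, Col6a2, Col8a1, Fbln1, Lox, Loxl1, Thbs2 and Tnc. The count of 5 was 1 without IFT88KD replated replicate 3, which lost Col6a3, Fbn2, Fmod and Lama2 (adjusted p from 0.0719 to 0.182). It was 2 without control replated replicate 2, which lost Col6a3, Fmod and Lama2 (0.0864 to 0.172), and 3 without control replated replicate 3, which lost Fbn2 and Fmod (both 0.117). Fmod was also lost without IFT88KD replated replicate 1 (0.13), Fbn2 without IFT88KD replated replicate 2 (0.144), and both without control replated replicate 1 (0.0573 to 0.111). With the arrays of the compared groups only, the calls of Col6a3, Fbn2, Fmod and Lama2 were lost. The summed cycling genes were again higher, at 7.43 to 7.67 against 5.66 to 6.00, and the summed macrophage list lower, at 6.20 to 6.42 against 7.31 to 7.42. Differentiated muscle markers summed to 10.78 to 11.19 against 9.99 to 10.49 and myoblast markers to 9.78 to 10.08 against 9.49 to 9.73. Of these markers 0 of 6 and 0 of 5 passed the threshold. Their part in the matrix changes was not tested.

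In proliferating cells 1 of 43 members passed, with 0.162% of all genes higher and 0.151% lower. Sulf2 read 4.84, 5.76 and 6.26 on control and 6.54, 6.62 and 7.51 on IFT88KD arrays, a rise of 1.27 (SE 0.26, adjusted p = 0.0264). The groups did not overlap. The call was lost without IFT88KD proliferating replicate 3 (adjusted p = 0.212), control proliferating replicate 1 (0.104) or control proliferating replicate 2 (0.0654). It was also lost with the arrays of the compared groups only. With the replicate block 3 members passed, Fbn2 (0.74) and Fmod (1.83) besides Sulf2. Nid2 changed by -0.03 (SE 0.18).

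In differentiating cells 0 members passed in limma, with 0.0812% of all genes higher and 0.058% lower at the same adjusted threshold. An unadjusted p under 0.05 was reached by 7 members, all of them higher. The share of all genes under an unadjusted 0.05 is not given here. The replicate block gave 3 higher members: Col4a1 (0.59, SE 0.20 without the block), Sulf2 (0.94, SE 0.26) and Fmod (1.25, SE 0.66). Sulf2 read 5.36, 5.38 and 5.74 on control and 6.20, 6.55 and 6.54 on IFT88KD arrays, which did not overlap. Nid2 changed by 0.36 (SE 0.18, adjusted p = 0.989).

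**Figure D3:**
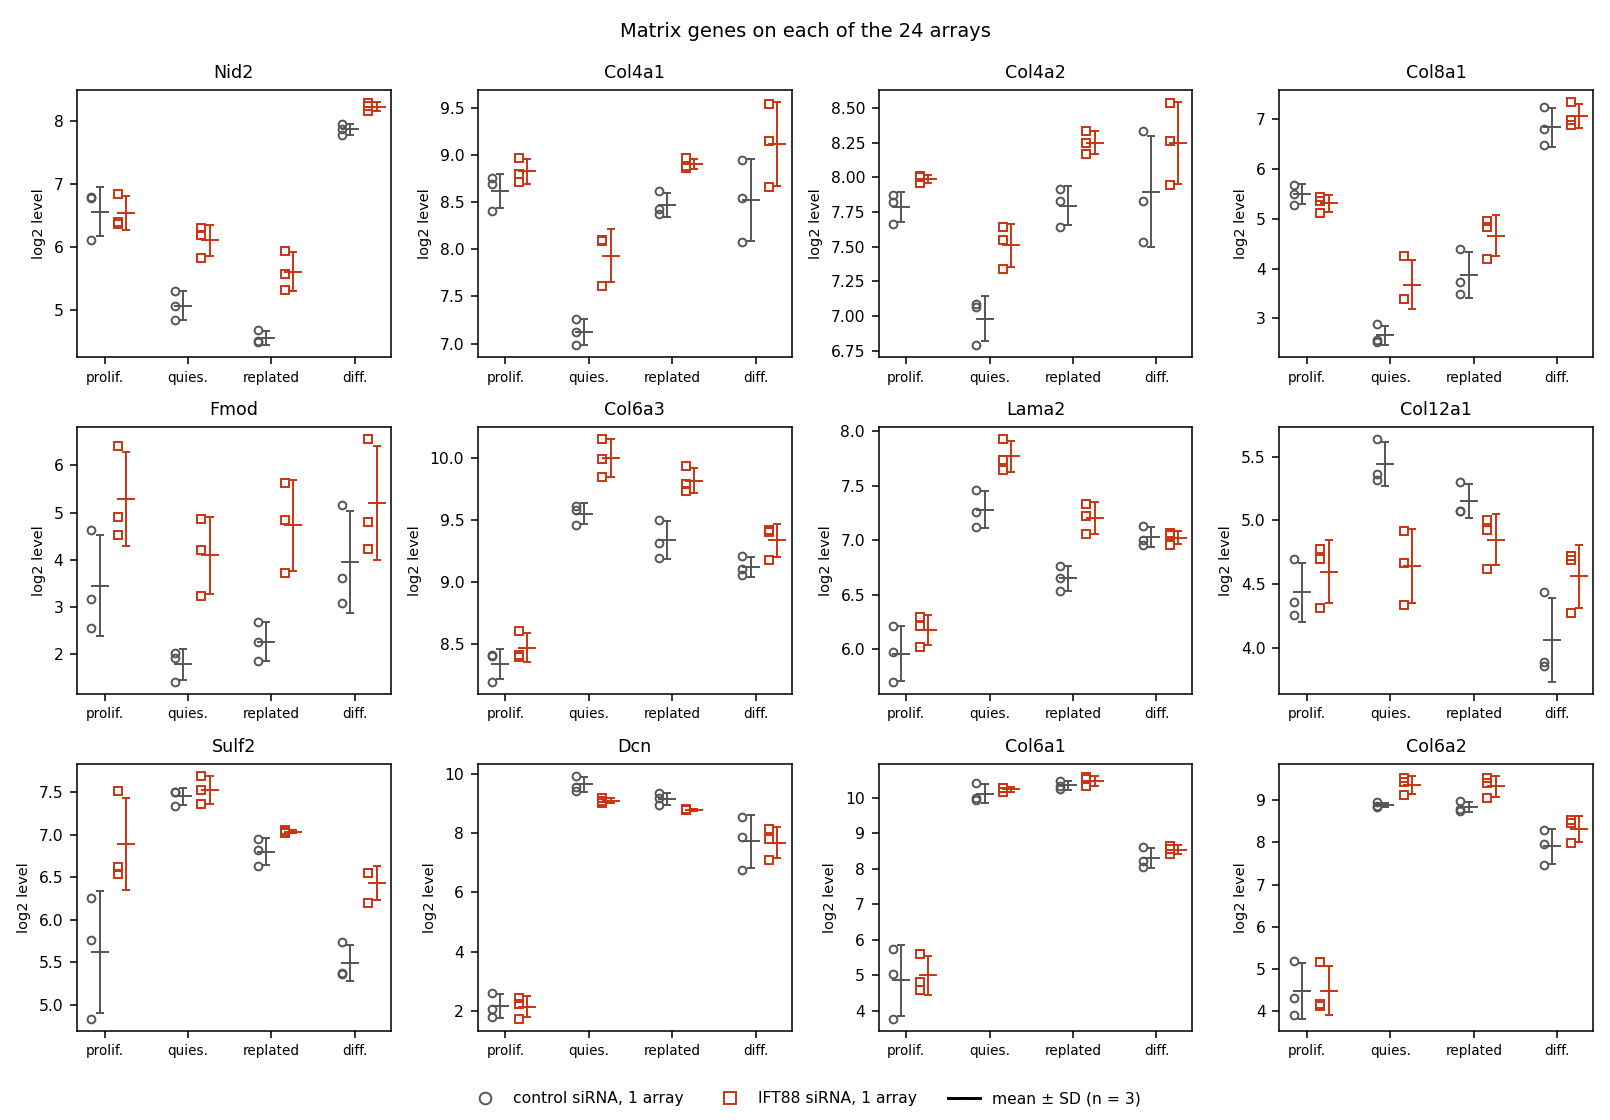
Log2 level (y axis) of 12 matrix genes on each of the 24 arrays, by state (x axis) and siRNA (circles control, squares IFT88KD), with mean ± SD of 3 arrays. Nid2 lies apart between the siRNAs in quiescent and replated cells and together in proliferating cells, and Dcn, Col6a1 and Col6a2 are low only in proliferating cells of either siRNA.

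Whether the siRNA effect differed between states was tested as a difference of the 2 effects. Between quiescent and proliferating cells 1 member passed, with 0.836% of all genes higher and 0.279% lower. This was Nid2, with a difference of 1.06 (SE 0.26, adjusted p = 0.045) between effects of 1.03 and -0.03. It was no longer past the threshold on centred values, with no filter or with the arrays of the compared groups only. It was also lost without IFT88KD proliferating replicate 1 or 2 (adjusted p = 0.125 and 0.114), control proliferating replicate 2 or 3 (0.152 and 0.12), IFT88KD quiescent replicate 1 or 3 (0.11 and 0.132) or control quiescent replicate 1 or 2 (0.119 and 0.098). With the replicate block 7 members passed, 5 with a larger effect in quiescence (Nid2, Col4a1, Thbs2, Tnc and Col8a1) and 2 with a smaller one (Sulf2 and Col12a1).

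Differences of effects were fitted for 2 more pairs of states, and the remaining pairs were not tested. Between replated and quiescent cells 0 members passed in limma, with 0.0% of all genes higher and 0.0% lower at the adjusted threshold. At an unadjusted 0.05, 0 members would pass there. Between differentiating and proliferating cells limma called 0 members, with 0.0116% of all genes higher and 0.0348% lower at the adjusted threshold. At an unadjusted 0.05, where the share of all genes is not given, 3 members would pass. That a difference was not detected with 3 arrays a group does not show that the effects were equal.

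The classes were also followed on each array, as the median over a class of each gene's level minus its mean over the 24 arrays. Fibrillar collagens stood at -0.47 ± 0.45 log2 in control proliferating, -0.34 ± 0.07 in quiescent, -0.05 ± 0.07 in replated and 0.34 ± 0.16 in differentiating cells (mean ± SD, n = 3). With IFT88 siRNA these were -0.48 ± 0.30, -0.02 ± 0.11, 0.08 ± 0.10 and 0.49 ± 0.16. The quiescent arrays were -0.40, -0.26 and -0.37 for control and -0.15, 0.05 and 0.05 for IFT88KD, which did not overlap. Without the block no fibrillar collagen passed on its own there (Col1a1 and Col5a3 did with it), and Col1a1, Col5a3 and Col5a1 had the largest changes, of 0.86, 0.71 and 0.34.

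The basement membrane genes lay at -0.55 ± 0.09 in control proliferating cells and at 0.21 ± 0.06, 0.12 ± 0.05 and 0.06 ± 0.05 in quiescent, replated and differentiating control cells. With the siRNA they were at -0.43 ± 0.19, 0.22 ± 0.09, 0.40 ± 0.15 and 0.11 ± 0.03. In quiescence 4 of the 11 genes rose while the class median was 0.21 and 0.22, and Lamb1, Lamb2, Lamc1 and Nid1 had changes of -0.08, 0.03, 0.19 and -0.13 that did not pass. The proteoglycans lay at -0.90 ± 0.32, 0.61 ± 0.13, 0.02 ± 0.10 and 0.43 ± 0.15 in control cells and at -0.64 ± 0.14, 0.35 ± 0.19, -0.04 ± 0.15 and 0.56 ± 0.16 with the siRNA. In quiescence 4 of the 6 proteoglycans had a change under 0, among them Lum (-1.02, SE 0.32) and Dcn (-0.55, SE 0.31), which did not pass here. Both passed with the replicate block, and Lum also on the deposited scale, with array weights and without control quiescent replicate 1 or 2. Levels of replated cells relative to the other states depend on the common scale described above.

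**Figure D4:**
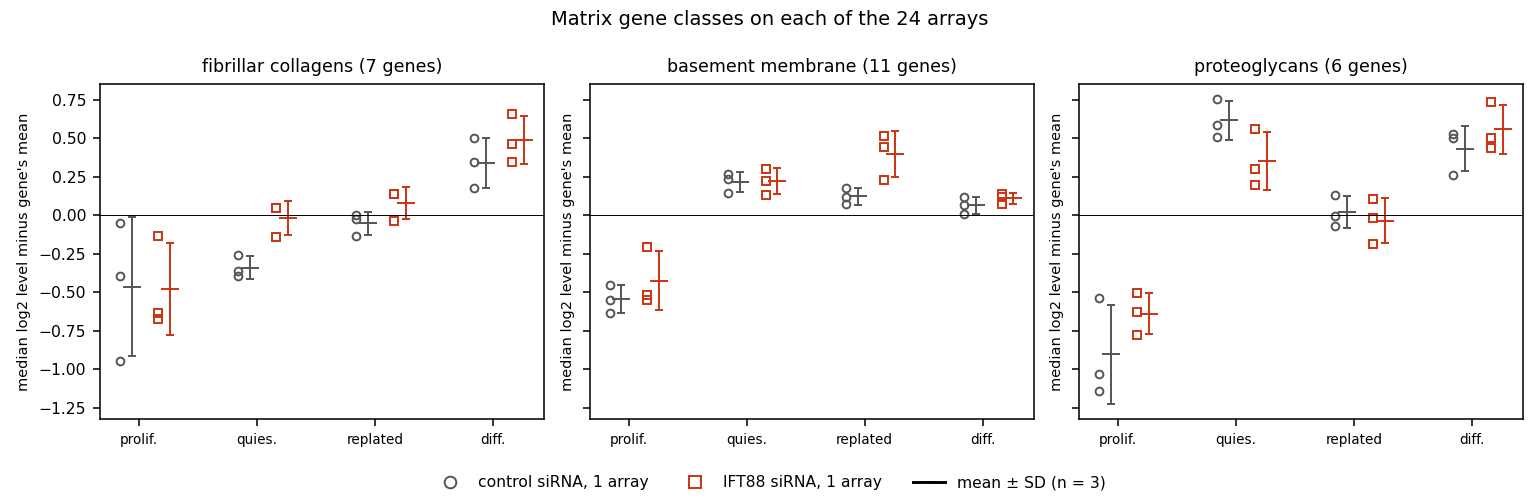
Median over a class of each gene's log2 level minus its own mean over the 24 arrays (y axis), for fibrillar collagens, basement membrane genes and proteoglycans in the 4 states (x axis), with circles for control, squares for IFT88KD and bars for mean ± SD of 3 arrays. The mean of each of the 3 classes is lowest in proliferating cells, for either siRNA. For control fibrillar collagens the proliferating arrays (-0.95, -0.40 and -0.05) overlap the quiescent ones (-0.40, -0.26 and -0.37).

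Genes that make, bind or induce the matrix were read from lists. Collagen processing genes, which modify and export procollagen, rose in quiescence in 13 of 14 cases with 0 lower and a median change of 1.01. P4ha2 and P4ha1, chains of the prolyl hydroxylase that stabilises the collagen helix, rose by 3.83 (SE 0.13) and 3.61 (SE 0.15), and the lysyl hydroxylases Plod1 and Plod2 by 2.33 (SE 0.14) and 1.89 (SE 0.16). Over all genes 37.4% rose and 33.1% fell there. In replated cells 1 was higher (Bmp1, 0.67) and 6 lower, with P4ha1 at -0.87, Sec23a at -0.81 and Crtap at -0.56, beside 27.5% and 36.3% of all genes. That split was 1 and 9 on the deposited scale and 8 and 1 on centred values, where Sec23a and Crtap did not pass. All 8616 genes split 838 and 5703 on the deposited scale and 4067 and 1761 on centred values. In differentiating cells 8 were higher and 0 lower (all genes 26.8% and 27.8%), P4ha1 by 0.95 and Plod2 by 0.82, and on centred values 5 and 3. Of all genes 1737 were higher and 3227 lower on centred values there. Between IFT88KD and control 0 of 14 passed in limma in any state, and at an unadjusted 0.05 only Crtap in replated cells would (0.39, SE 0.14).

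Of the matrix receptors, integrins and syndecans among them, 9 of 16 rose and 3 fell in quiescence, beside 37.4% and 33.1% of all genes. The heparan sulphate carriers Sdc1, Sdc2 and Sdc4 rose by 1.69, 1.68 and 1.52, and Itga7, the laminin-binding integrin chain of muscle, fell by 1.40 (SE 0.17). After replating 6 rose and 2 fell (all genes 27.5% and 36.3%), which was 4 and 4 on the deposited scale and 12 and 0 on centred values. All 8616 genes split 838 and 5703 on the deposited scale and 4067 and 1761 on centred values. Itga5, the fibronectin receptor chain, rose by 2.65 (SE 0.28) and Cd44 by 1.04 (SE 0.11). In differentiating cells 7 rose and 3 fell (all genes 26.8% and 27.8%), Dag1 (dystroglycan) by 1.89 and Itga7 by 1.52. With IFT88 siRNA only Itgav in quiescent cells passed, at 0.32 (SE 0.09, adjusted p = 0.0362).

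Among TGF-beta ligands, receptors and targets, 9 of 14 rose and 3 fell in quiescence, where 37.4% and 33.1% of all genes did. Tgfbi, which encodes a matrix protein induced by TGF-beta, rose by 6.65 (SE 0.16), and Ccn2 fell by 1.91 (SE 0.35). The control proliferating mean of Tgfbi was 1.58, under the filter level, so the size of its rise is uncertain. After replating 7 rose and 2 fell, against 27.5% and 36.3% of all genes, and the split was 3 and 4 on the deposited scale and 11 and 0 on centred values. All 8616 genes split 838 and 5703 on the deposited scale and 4067 and 1761 on centred values. Ccn2 was up by 5.74 (SE 0.35), Ccn1 by 2.07 and Smad7 by 1.43. In differentiating cells 7 rose and 3 fell, against 26.8% and 27.8% of all genes, led by Tgfb3 at 2.57 and Tgfb2 at 1.71. With IFT88 siRNA the receptor gene Tgfbr2 was higher in quiescent (0.48, SE 0.11, adjusted p = 0.0108) and replated cells (0.48, SE 0.11, adjusted p = 0.018), and Tgfbi was lower in quiescent cells (-0.89, SE 0.16, adjusted p = 0.00156). The effect on both differed between quiescent and proliferating cells, by 0.67 for Tgfbr2 (adjusted p = 0.0372) and by -1.14 for Tgfbi (adjusted p = 0.0105). For Tgfbi this difference uses proliferating control levels under the filter level, so its size is uncertain too.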

How the data were processed

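The 24 arrays came as 1 deposited table, with a log2 value for each of 22690 probe sets, made by the authors with GCOS, Affymetrix Expression Console and affy, per the submitters' processing notes. Tool versions and normalisation are not given in the sources used here. Values were quantile-normalised over the 24 arrays, because the deposited states lay on different scales. Each gene was read through its brightest probe set among those of 1 gene, and genes above the 40th percentile on at least 3 arrays were kept (8616). All arrays were fitted together in limma 3.58.1 (R 4.3.3), with a coefficient per group, 10 contrasts and Benjamini-Hochberg adjustment over all genes at 0.05. The program was tested on simulated data.

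The members, classes, lists and markers were chosen with earlier results of these data known. Members named are those past the threshold in any siRNA contrast or difference of effects, the 5 largest rises and falls of each state change, those under the filter, and up to 4 genes per further list. Fibrillar collagens besides these, and members called with the block alone, were named after their values were seen.

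The replicate numbers pair the samples of both siRNAs: within a state, same-numbered IFT88KD and control arrays deviated together from their group means (r across genes 0.256 to 0.709), and differently numbered ones did not (r at most 0.105). Deviations from a group mean cancel out within the group, so the low r of differently numbered arrays is no separate evidence of pairing. For control states the range over same-numbered arrays was 0.137 to 0.42 (replated, quiescent), 0.172 to 0.294 (differentiating, proliferating) and -0.0323 to 0.0645 (quiescent, proliferating, not paired). The main fit had no block, a choice made because the sources do not give the methods. Its SEs, adjusted p-values and counts thus ignore the pairing of the siRNAs. These unpaired values are given, with the calls that the block adds between the siRNAs. Promoter windows were those of RefSeq on GRCm38.p6, which held 34 of the 50 listed genes. Plots were drawn with matplotlib 3.10.9.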

Additional observations from a re-analysis of the deposited data

Results flagged for a closer look

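The effect of IFT88 siRNA on Nid2 differed between states by the test of the difference itself. The effect was 1.03 in quiescence and -0.03 in proliferation, a difference of 1.06 log2 (SE 0.26, adjusted p = 0.045, limma), and 3 of 3 quiescent IFT88KD arrays lay above every quiescent control array. The adjusted p ran from 7.22e-04 to 0.152 over 22 alternatives, and 11 of these put it over the threshold.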

How the results depend on the processing

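The total counts of matrix genes past the threshold for the state changes stayed within 1.5 times under every alternative that kept all arrays. Their directions did not hold after replating. The 11 higher and 8 lower members became 4 and 17 on deposited values and 26 and 0 on centred values, where the split of all genes moved too. For IFT88KD against control in proliferating cells the count of 1 was 2 on deposited and 2 on centred values, 0 with the arrays of the compared groups only and 3 with the replicate block. In quiescent cells the count of 12 was 20 with the block. In replated cells the 5 were 3 on deposited and 3 on centred values, 1 with the compared groups only and 17 with the block. In differentiating cells the 0 became 1 with array weights (Sulf2) and 3 with the block. The 1 difference of effects between quiescent and proliferating cells was 0 on centred values, 0 with no filter, 0 with the compared groups only, 6 with array weights and 7 with the block. The estimation of array weights stopped short of its convergence tolerance. The cause of these shifts was not tested, and the share of all genes called with the block is not given beside them. The block ended none of the 47 calls of named members, and none changed sign under any alternative. For the state changes these named members are the largest rises and falls only. The arrays of the compared groups only ended 13 of these 47 calls, centred values 8 and probe sets averaged per gene 6. With 1 array left out at a time, the call was lost in 81 of 288 repeats. For the state changes the block added Hspg2 and Lama5 after replating and Col12a1 and Thbs1 in differentiation. In quiescence the block took the count from 38 to 41, with 28 higher and 13 lower.

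Leaving out each array in turn gave counts between the siRNAs of 0 to 2 (proliferating), 4 to 9 (quiescent), 1 to 6 (replated) and 0 to 0 (differentiating). It gave 35 to 38, 11 to 18 and 30 to 34 for the quiescent, replated and differentiating state changes, and 0 to 2 for the difference between quiescent and proliferating effects. The Ift88 change in differentiating cells was 0.0012 with array weights and -0.14 to 0.15 with an array left out. In quiescence it no longer passed without IFT88KD replicate 2 or 3 or control replicate 1 (adjusted p from 0.0706 to 0.0956), and after replating without replicate 1 or 3 of either siRNA (0.0596 to 0.115). Changes of members near the filter level, Fmod, Fbn2, Lum and Col11a1 among them, are limited by low signal.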
